A study of Rattus norvegicus with 13 samples.

Results

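The transcripts described here encode the potassium channel subunits that end the cardiac action potential: Kcna4, Kcnd2, Kcnd3 and Kcnip2 of the transient outward current, Kcna5 of the ultrarapid delayed rectifier, Kcnj2 and Kcnj12 of the inward rectifier, Kcnq1 and Kcne1 of the slow delayed rectifier, and Kcnh2 of the rapid delayed rectifier. They were taken by gene name from the array design, with every probe of each name, which gave 10 genes on 16 probes out of 26115 gene names on 30367 probes. RNA of the left ventricle was hybridized with a single dye, Cy3, and all rats were male and 45 weeks old. Rats overexpressing ADBR3, as the labels spell the β3-adrenergic receptor, were compared with wild-type (WT) rats: 7 arrays of 5 overexpressing rats and 6 arrays of 4 WT rats. The sources used here do not say by what construct or promoter the receptor was overexpressed, in which cells, or in which strain, and name no treatment for either group. Hearts 1 and 2 of each group are 2 labelings of the RNA of 1 rat and were averaged. WT heart 5 and overexpressing heart 4 are repeat hybridizations whose partner is not named, and were kept out of the comparison. Rats are called by heart number, so that the WT rats are 1, 3, 4 and 6 and the overexpressing rats are 1, 3, 5, 6 and 7. The labels do not say that equal numbers in the 2 groups mark related rats.

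Repolarization returns a heart muscle cell to its resting potential. In the rat ventricle it is fast and rests mainly on the transient outward current, whose pores are Kv4.2 (Kcnd2), Kv4.3 (Kcnd3) and, for a slowly recovering part, Kv1.4 (Kcna4), and whose cytoplasmic β subunit is KChIP2 (Kcnip2). Kir2.1 (Kcnj2) and Kir2.2 (Kcnj12) hold the resting potential and shape the final phase. The delayed rectifiers hERG (Kcnh2) and KvLQT1 (Kcnq1) with its small partner minK (Kcne1) carry more of repolarization in large mammals than in the adult rat, and Kv1.5 (Kcna5) is best known from the atrium.

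All levels below are log2 of the background-corrected spot signal, set relative to the 75th percentile of its array, so that a level of 0 equals that percentile and 1 unit is a factor of 2. A level belongs to its own probe, since probes differ in how they bind, and levels of different probes are not ranked against each other. Differences are overexpressing minus WT. Mean levels are given with the SD between rats, n = 4 WT and n = 5 overexpressing. Per the labels the averaged values are of different rats, and nothing more is said of how independent these are.

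The array reads each transcript through probes of 60 bases. Those on which the results turn are shown 5′ to 3′, with their position on build rn4 as the scanner files give it. No annotation of that build was used here, so the exon is not stated. The transient outward current is represented by the brighter Kcnd2 probe, at chr4:48046217-48046276 on the plus strand, and by the Kcnip2 probe, whose bases lie within 345 genome bases at chr1:251011241-251011585 on the minus strand:
Kcnd2: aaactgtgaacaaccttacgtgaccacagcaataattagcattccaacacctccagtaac
Kcnip2: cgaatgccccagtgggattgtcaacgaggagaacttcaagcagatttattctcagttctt
The probes of Kcna5, at chr4:162896330-162896389, and of Kcne1, at chr11:32344803-32344862, both on the minus strand, are shown because these genes had the largest differences of the 9 tested members:
Kcna5: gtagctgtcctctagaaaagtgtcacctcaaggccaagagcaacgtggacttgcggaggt
Kcne1: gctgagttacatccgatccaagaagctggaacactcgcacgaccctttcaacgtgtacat

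The inward rectifier pair is shown because its probes lie on corresponding stretches of related genes. Whether they share target was not tested. The Kcnj2 probe is at chr10:100576110-100576169 and the Kcnj12 probe at chr10:47214419-47214478, both on the plus strand. Capitals mark the positions at which they differ:
Kcnj2: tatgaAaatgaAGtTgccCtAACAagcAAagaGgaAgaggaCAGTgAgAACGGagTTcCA
Kcnj12: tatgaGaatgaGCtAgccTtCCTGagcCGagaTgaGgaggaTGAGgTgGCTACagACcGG
Of the 60 positions, 33 are the same and 27 differ, and the longest shared run is 5 bases. GC content is 43.3% in the Kcnj2 probe and 55% in the Kcnj12 probe.

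The tissue carried cardiomyocyte markers throughout. All 8 of the cardiomyocyte markers listed (Myh6, Tnnt2, Tnni3, Actc1, Ttn, Myl2, Myl3 and Ryr2) were well above background on all 13 arrays, with mean levels per rat of 7.07 to 7.33 in WT and 7.18 to 7.29 in overexpressing rats. Atrial markers were present as well: 5 of 6 were above background on all 13 arrays, and the mean of these 5 ranged from 2.90 to 3.94 in WT and from 2.94 to 4.90 in overexpressing rats. Overexpressing rat 6 had the highest value, with Myl7, the atrial myosin light chain, at 7.46, and its array was the single one on which Bmp10 was above background. Of 6 conduction system markers, Hcn4 and Gja5 were above background on all 13 arrays, while Isl1 was above it on 0 arrays. In such bulk samples, fewer cells of a type and less RNA per cell cannot be told apart. The share of spots well above background was 55.2% to 67.8% per array, lowest on WT heart 2. The rat Adrb3 probe was above background on none of the WT arrays (0 of 6) and on 1 of 7 others, with levels of -6.44 ± 0.445 and -5.96 ± 1.22 (exact two-sided permutation p = 0.532). It checks no label, since the sources used here do not name the Adrb3 sequence that the rats carry.

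No repolarizing channel gene passed the threshold between the groups. Of the 10 genes, 9 had a probe well above background in at least 4 of 9 rats and were tested, and Kcnj2 was not. Differences ran from -0.078 for Kcnh2 to 0.76 for Kcna5, with 4 genes higher and 5 lower in overexpressing rats and a median of -0.016 (5 and 4 with a median of 0.025 under median scaling, and of 0.040 under quantile normalization, where Kcnd3 turned), beside a median of -0.0089, 46.7% higher and 53.3% lower over all 15367 genes tested. None of the 9 passed an adjusted p of 0.05 (0 of 9, limma with Benjamini-Hochberg adjustment over all genes), a threshold that 0.00651% of all genes passed. At an unadjusted limma p under 0.05 there was 1 of 9, Kcna5, which was above background in 2 of 4 WT and 5 of 5 overexpressing rats, beside 9.44% of all genes (3.15% higher and 6.29% lower). Of all genes at this p, 484 were higher and 967 lower, a split that turned to 951 and 568 with median scaling of the arrays and to 881 and 725 with quantile normalization. The groups overlapped in all 9, where they did not overlap for 3.52% of all genes (1.22% higher and 2.3% lower). The same held for all 13 probes tested, of which 0 passed adjustment over 17587 probes, beside 0.00569% of them, and 1, that of Kcna5, had an unadjusted limma p under 0.05, beside 9.2%.

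**Figure D1:**
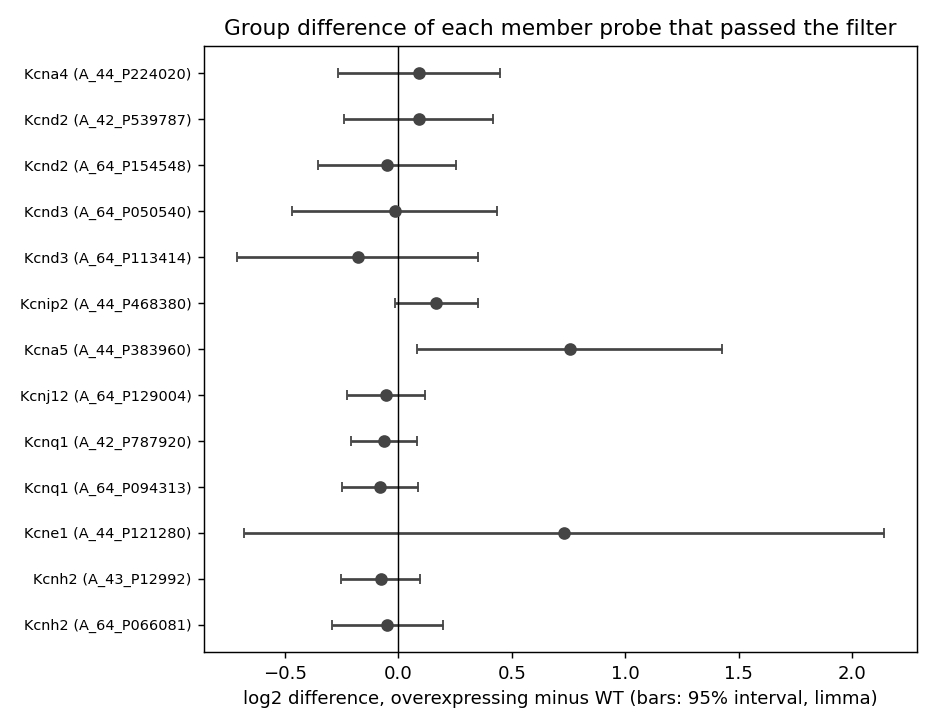
Difference between groups for each of the 13 tested probes of the 9 channel genes, in log2 units (overexpressing minus WT), ordered by current. Points are limma estimates and bars 95% intervals; of the 13 intervals only that of Kcna5, 0.0830 to 1.43, excludes 0, and its adjusted p over all genes was 0.499.

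The transient outward current genes showed no difference beyond the spread between rats. Kcnd2, the main pore of this current in rat ventricle, was at -0.83, -0.85, -0.65 and -0.69 in WT rats 1, 3, 4 and 6 and at -0.93, -0.84, -0.61, -1.17 and -0.46 in overexpressing rats 1, 3, 5, 6 and 7. The overexpressing rats spread on both sides of all WT rats, with rat 6 lowest and rat 7 highest. The means were -0.754 ± 0.0988 and -0.804 ± 0.278, a difference of -0.05 (SE 0.135, 95% interval -0.354 to 0.254, limma adjusted p = 0.931). The sign turned to 0.042 without overexpressing rat 6, and the difference was -0.14 without overexpressing rat 7. Rat 6 had the most atrial marker signal, and the part of atrial tissue here was not tested. The second Kcnd2 probe, printed in 10 spots, gave -2.22 ± 0.235 and -2.13 ± 0.243, a difference of 0.089 (SE 0.146).

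Both Kcnd2 probes ordered the rats alike, although neither separated the groups. Over the 9 rats their levels correlated with Pearson's r = 0.824 (exact permutation p = 0.00409, adjusted over 4 probe pairs 0.0123) and Spearman's rho = 0.9 (exact permutation p = 0.00203). Without the 2 rats farthest from the median, r was 0.696. The 10 spots of the second probe had an SD of 0.0977 to 0.181 within an array, with a median of 0.141, against 0.239 between rats.

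Kcnip2, the calcium-binding subunit that brings Kv4 channels to the surface, was slightly higher in overexpressing rats without passing the threshold. WT rats were at 0.49, 0.28, 0.57 and 0.23 and overexpressing rats at 0.49, 0.60, 0.51, 0.68 and 0.53. The overexpressing rats sat in a narrow band, level with the higher WT rats 1 and 4 and above WT rats 3 and 6. The means were 0.394 ± 0.164 and 0.562 ± 0.0768, a difference of 0.17 or 1.12-fold (SE 0.0810, 95% interval -0.0151 to 0.351, limma adjusted p = 0.536, exact two-sided permutation p = 0.0952). Without WT rat 4 the difference was 0.23 with an exact permutation p of 0.0357. Leaving out any other rat gave differences of 0.11 to 0.20 and an exact permutation p of 0.0893 to 0.232. Within scan days 1 and 2 the difference was -0.038 and 0.23. Day 1 holds 1 WT and 3 overexpressing rats and day 2 holds 3 of each, with overexpressing rat 1 on both.

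Kcnd3 and Kcna4, the other pore genes of this current, did not differ beyond the spread between rats either. The brightest Kcnd3 probe was above background on 5 of 6 arrays in WT and 7 of 7 in overexpressing rats, at -3.61 ± 0.444 and -3.62 ± 0.216, a difference of -0.016 (SE 0.200, 95% interval -0.467 to 0.435, limma adjusted p = 0.985). Its labelings of 1 rat differed by 0.647 in WT rat 1 and 0.437 in overexpressing rat 1, as much as the spread between rats. A second Kcnd3 probe, above background on 4 of 6 and 6 of 7 arrays, gave -4.36 ± 0.0598 and -4.54 ± 0.521, and did not track the first over the 9 rats (r = -0.0723, exact permutation p = 0.831; rho = 0.267). The other two Kcnd3 probes were above background on 1 and 0 of the 6 WT arrays and on 0 of the 7 from overexpressing rats. All 4 lie within 606 bases, chr2:200921626-200922231 of build rn4.

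Kcna4 was above background on all 13 arrays. It was at -3.21, -3.02, -3.28 and -3.93 in WT rats and at -3.31, -3.33, -3.24, -3.25 and -3.21 in overexpressing rats. WT rat 6 was the lowest of all 9, while the overexpressing rats lay close to each other, inside the WT range. The labelings of overexpressing rat 1, at -3.49 and -3.14, differed by 0.349 and lay on either side of this narrow band. Those of WT rat 1 differed by 0.113. The repeat hybridization of overexpressing heart 4 read -2.81, above every WT rat, and that of WT heart 5 read -3.16. Whether the narrow band is a trait of the group was not tested. The means of -3.36 ± 0.395 and -3.27 ± 0.0509 differed by 0.09 (SE 0.158, 95% interval -0.264 to 0.450, limma adjusted p = 0.868). Without WT rat 6 the difference was -0.096.

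**Figure D2:**
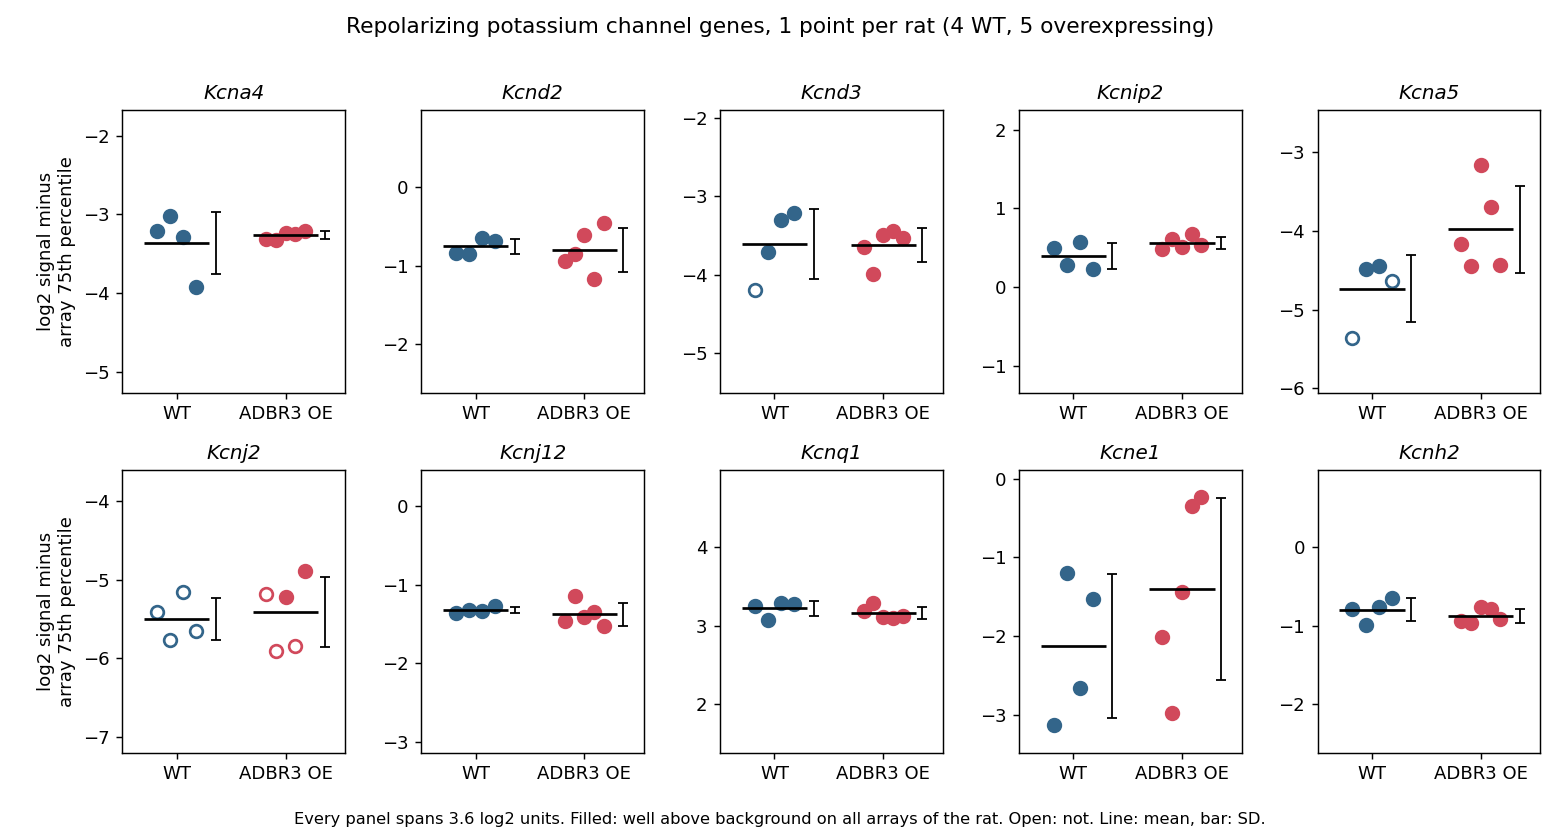
Level of the brightest probe of each channel gene in each rat, on the log2 scale relative to the array's 75th percentile, 1 panel per gene, with WT and overexpressing (OE) rats side by side. Lines are means, bars the SD, and open points are rats whose arrays were not all above background; every panel spans the same range, so the scatter of Kcne1, 2.90 from the lowest to the highest rat, can be set against that of Kcnq1, 0.217.

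Kcna5, the Kv1.5 pore of the ultrarapid delayed rectifier, was higher in overexpressing rats by 1.69-fold, without passing the threshold. Its difference was close to that of Kcne1, and below it with normexp correction (0.27 and 0.58), in the authors' table (0.38 and 0.63) and with slide as a term (0.52 and 1.05). WT rats 1, 3, 4 and 6 were at -5.36, -4.49, -4.44 and -4.64. Overexpressing rats 1, 3, 5, 6 and 7 were at -4.17, -4.45, -3.15, -3.70 and -4.43. Of the overexpressing rats 4 of 5 lay above every WT rat, though rat 7 by only 0.016, and rat 3 was just below WT rat 4, so that the groups overlapped. The means were -4.73 ± 0.428 and -3.98 ± 0.551, a difference of 0.76 (SE 0.298, 95% interval 0.0830 to 1.43, limma adjusted p = 0.499, exact two-sided permutation p = 0.0476). The smallest p this design allows is 0.00794.

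The Kcna5 signal was faint. Its probe was above background on 3 of 6 arrays in WT and on 7 of 7 in overexpressing rats, and WT rats 1 and 6 were not above background. It thus met the filter of 4 of 9 rats through the overexpressing group, where it is the brighter, and the fold and p rest in part on values near the detection limit. With normexp background correction the difference was 0.27 and the exact permutation p was 0.0794. Leaving out 1 rat at a time gave differences of 0.55 to 0.87. The exact permutation p was then 0.143, 0.107, 0.0536 and 0.125 without WT rats 1, 3, 4 and 6. It was 0.0571 without each of overexpressing rats 1, 5, 6 and 7 in turn, and 0.0286 without overexpressing rat 3. Fewer rats allow fewer splits, so these p-values move in coarser steps, and 0.0286 is the smallest that 4 against 4 rats allow. The difference was 0.084 within scan day 1 and 1.17 within scan day 2. Within slides 1, 3 and 4, which hold both groups, it was 0.016, 0.87 and 0.99, the last with both repeat hybridizations, WT heart 5 and overexpressing heart 4. Kcna5 is also an atrial transcript, and without overexpressing rat 6, which had the most atrial marker signal, the difference was 0.68. The highest Kcna5 level was in overexpressing rat 5, whose atrial marker mean of 3.33 lay within the WT range. The part of atrial tissue in the difference was not tested.

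The inward rectifier was read by Kcnj12 alone. Kcnj12, which encodes Kir2.2, was at -1.36, -1.33, -1.33 and -1.27 in WT rats, the tightest of the 9 tested genes within WT, and at -1.46, -1.15, -1.40, -1.34 and -1.52 in overexpressing rats. The overexpressing rats spread around the WT rats, with rat 3 above and rats 1, 5 and 7 below all of them. The means of -1.32 ± 0.0386 and -1.37 ± 0.144 differed by -0.054 (SE 0.0757, 95% interval -0.225 to 0.117, limma adjusted p = 0.839).

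The Kcnj2 probe, for Kir2.1, was not well above background on most arrays. It was above it on 1 of 6 arrays in WT and 2 of 7 in overexpressing rats, with measured values of -5.50 ± 0.269 and -5.41 ± 0.445 that allow no fold. Overexpressing rats 5 and 7 were the only rats (2 of 9) above background, at -5.22 and -4.89. A faint probe does not show that the transcript is scarce, since it is the single probe of Kcnj2 on the array and its binding is unknown.

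The slow delayed rectifier pair differed from each other in how they varied. Kcnq1, the pore, was steady: WT rats were at 3.26, 3.08, 3.28 and 3.28 and overexpressing rats at 3.18, 3.30, 3.11, 3.09 and 3.13. WT rat 3 stood below the other WT rats, at the level of the lowest overexpressing rats. The means of 3.22 ± 0.0973 and 3.16 ± 0.0819 differed by -0.062 (SE 0.0642, 95% interval -0.206 to 0.0834, limma adjusted p = 0.777). The second Kcnq1 probe gave -0.883 ± 0.137 and -0.962 ± 0.0825, a difference of -0.079 (limma adjusted p = 0.752), and ordered the rats like the first (r = 0.857, exact permutation p = 0.00615, adjusted 0.0123; rho = 0.783, exact permutation p = 0.0172; r = 0.870 without the 2 farthest rats).

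Kcne1, the single-pass minK subunit that slows the opening of KvLQT1, varied between rats more than nearly any other transcript, within both groups. WT rats were at -3.13, -1.20, -2.66 and -1.53, and overexpressing rats at -2.02, -2.98, -1.43, -0.34 and -0.23. The lowest and highest of the 9 rats, WT rat 1 and overexpressing rat 7, were 2.90 apart. Overexpressing rats 6 and 7 were above all WT rats, and overexpressing rat 3 was nearly as low as WT rat 1. The means of -2.13 ± 0.916 and -1.40 ± 1.16 differed by 0.73 or 1.66-fold (SE 0.625, 95% interval -0.681 to 2.14, limma adjusted p = 0.722, exact two-sided permutation p = 0.349). The spread leaves a change in either direction within the interval.

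The scatter of Kcne1 was larger between rats than between repeat labelings of a rat. Its pooled SD within groups was 1.06, at the 99.5th percentile of all 15367 genes, whose median SD was 0.133, and at the 99.2nd percentile of the 500 genes of the most similar level. By contrast the 2 labelings of WT rat 1 differed by 0.153 and those of overexpressing rat 1 by 0.0693. Kcne1 was above background on all 13 arrays. Kcna5 was at the 95.9th percentile of spread, with a pooled SD of 0.502, and Kcnq1 at the 27.4th with 0.0888. Within slide 1, WT rat 4 and overexpressing rat 7 differed by 2.43. The group difference was 0.35 within slide 3 and 1.01 within slide 4, the last with both repeat hybridizations. Within scan days 1 and 2 it was 0.91 and 0.70. It was 0.40 without WT rat 1, 0.44 without overexpressing rat 7, 0.47 without overexpressing rat 6 and 1.12 without overexpressing rat 3. The smallest value under 22 alternatives was 0.18.

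**Figure D3:**
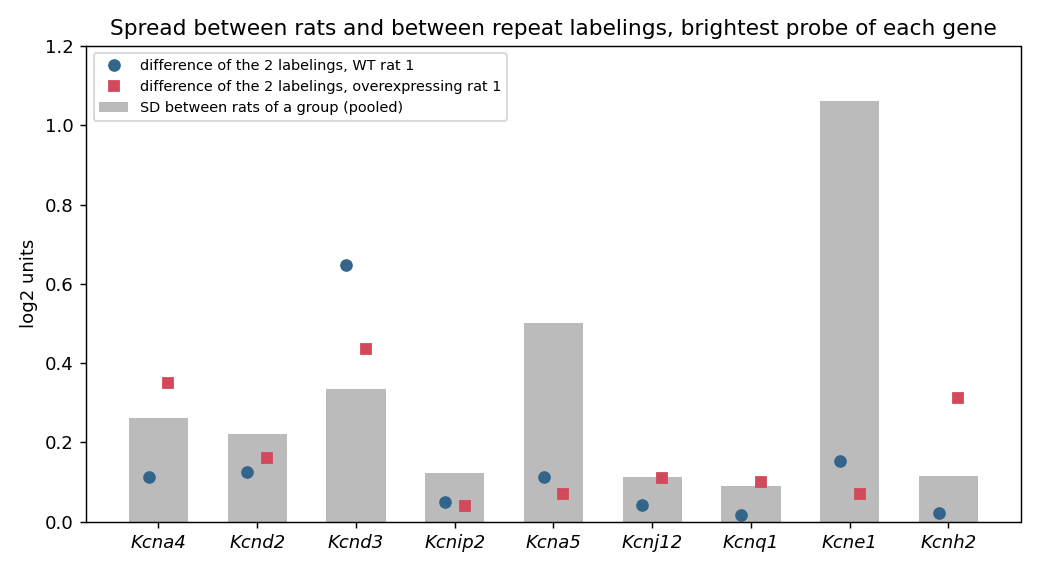
Pooled SD between rats of a group (bars) for the brightest probe of the 9 tested channel genes, in log2 units, with the absolute difference between the 2 labelings of WT rat 1 and of overexpressing rat 1 as points. For Kcne1 the bar, at 1.06, is far above both points, at 0.153 and 0.0693, while for Kcnd3 both points, at 0.647 and 0.437, lie above the bar.

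No pair of members was correlated over the rats beyond what adjustment over the 36 pairs allows (0 of 36). Each gene was read by its brightest probe. By Pearson's r the strongest was Kcnq1 with Kcne1, where r was -0.797 (exact permutation p = 0.0155, adjusted 0.558) and rho was -0.75 (exact permutation p = 0.0255, adjusted 0.459). Without overexpressing rat 3 and WT rat 3, r was -0.774, and with the group means removed -0.766. Kcna4 and Kcnh2 gave the next smallest Pearson p among these pairs (r = -0.674, exact permutation p = 0.0362, with rho = -0.383). This rested on WT rats 6 and 3, since without them r was 0.473. By Spearman's rho the smallest p was that of Kcnd3 with Kcnh2 (rho = 0.8, exact permutation p = 0.0138, adjusted 0.459), where r was 0.509. Kcne1 was high in overexpressing rats 6 and 7, whose mean of the 5 tested atrial markers was 4.90, the highest of the 9 rats, and 2.94, next to the lowest. Of these markers, rat 7 was lowest in Myl7 at 4.00 and toward the low end in Sln at 0.60 and Stard10 at -1.42. Its Nppa, at 4.08, lay within the WT range. It was highest in Myl4 at 7.45, but this marker ran only from 7.26 to 7.45 over the 9 rats. Whether atrial tissue has a part in the scatter of Kcne1 was not tested.

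**Figure D4:**
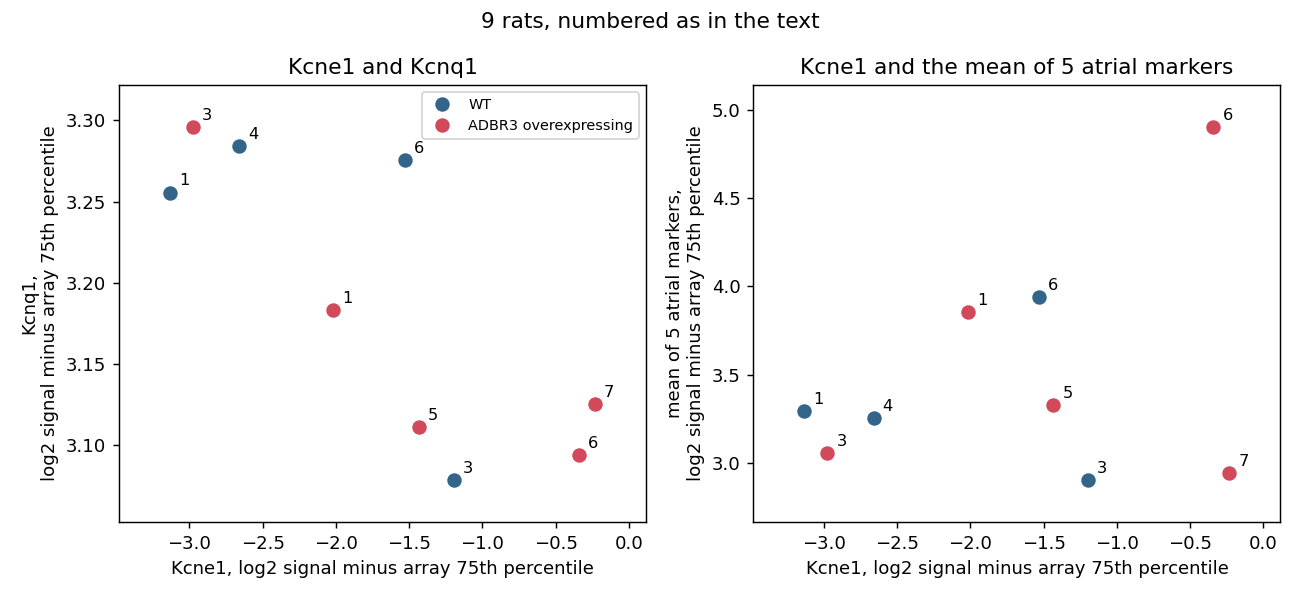
Levels of Kcne1 (horizontal axes) against the brighter Kcnq1 probe (left) and against the mean of 5 atrial markers (right) in the 9 rats, log2 relative to the array's 75th percentile, with rats numbered and coloured by group. Kcnq1, over a range of only 0.217, tends to be lower where Kcne1 is higher (r = -0.797, not past adjustment). Overexpressing rats 6 and 7, alike in Kcne1, have atrial means of 4.90 and 2.94.

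Kcnh2, the hERG pore of the rapid delayed rectifier, did not differ beyond the spread between rats. WT rats were at -0.79, -0.99, -0.76 and -0.64 and overexpressing rats at -0.93, -0.96, -0.77, -0.79 and -0.92. The WT rats enclosed all overexpressing rats. The labelings of overexpressing rat 1 differed by 0.312, near the whole range of 0.344 over the 9 rats. The means of -0.795 ± 0.142 and -0.874 ± 0.0895 differed by -0.078 (SE 0.0773, 95% interval -0.253 to 0.0961, limma adjusted p = 0.761). Its second probe was at -1.40 ± 0.148 and -1.44 ± 0.190, a difference of -0.048 (limma adjusted p = 0.914), and did not order the rats like the first (r = 0.151, exact permutation p = 0.701; rho = -0.05).

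Other genes of the repolarization machinery were read from lists of accessory subunits, other potassium channels and regulators. Of 53 such genes tested 0 passed an adjusted p of 0.05, and 2, Kcng1 and Tbx3, were lower at an unadjusted limma p under 0.05, where 6.29% of all genes were. Of the accessory subunits 4 of 12 on the array were tested, 2 higher and 2 lower. Dpp6, which speeds Kv4 channels, was above background on 2 of 6 arrays in WT and 6 of 7 in overexpressing rats, and so met the filter mainly through the latter. Its difference of 0.63 was 0.092 with normexp correction and 0.079 without WT rat 4. Kcnab1, a Kv1 β subunit, differed by 0.085, and the Kcne1 relatives Kcne2 and Kcne4 by -0.25 and -0.21. The limma adjusted p-values of these 4 were 0.632 to 0.959. In the list of other inward rectifiers, 5 of the 6 tested were higher, with a median of 0.115 (0.046 with normexp correction). Kcnj9, above background on 3 of 6 arrays in WT and 4 of 7 in overexpressing rats, differed by 0.30, and by 0.010 with normexp correction and 0.10 in the authors' table. Kcnj14 differed by 0.26, and Kcnj11, the pore of the ATP-sensitive channel, by -0.16 (limma adjusted p = 0.586). Two-pore and calcium-activated channels gave 9 higher and 3 lower of 12, with a median of 0.077 (7 and 5 with a median of 0.011 with normexp correction). Kcnk2 (TREK-1) and Kcnk5, with the smallest unadjusted p among the higher ones, differed by 0.14 and 0.16, while Kcnma1 (BK) was at -0.21 and its subunit Kcnmb2 at -0.056.

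Among the other voltage-gated channels, 5 were higher and 5 lower of 10 tested, with a median of 0.0028, while median scaling gave 8 and 2 and normexp correction 3 and 7. Kcng1, a silent subunit that modifies Kv2 channels, was at 5.63 ± 0.0581 in WT and 5.31 ± 0.101 in overexpressing rats, a difference of -0.31 (SE 0.0625, limma adjusted p = 0.239) with no overlap between the groups. Kcng1 was the 1 of these 10 genes without overlap, beside 3.52% of all genes (2.3% lower). Its probe has 1 spot, on which the labelings of overexpressing rat 1 read 5.51 and 5.10. The repeat hybridization of overexpressing heart 4 read 5.63, within the WT range. A second bright Kcng1 probe differed by -0.22 (limma adjusted p = 0.455). A dim one, at -4.57 to -3.78 per array, differed by -0.069, and a further Kcng1 probe was above background on no array. Which transcript the bright probes read was not tested. With slide as a term the first probe differed by -0.086. Kcna7 and Kcns3 differed by 0.13 and -0.081.

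The regulators and anchors on the array, 21 genes, were all tested, with 16 higher, 5 lower and a median of 0.040 (17, 4 and 0.082 with median scaling, and 14, 7 and 0.014 in the authors' table). Klf15, a transcription factor that drives the daily rhythm of Kcnip2, was at 1.84 ± 0.257 in WT and 2.12 ± 0.167 in overexpressing rats, a difference of 0.28 (SE 0.129, limma adjusted p = 0.529). The conduction system repressor Tbx3 was at -0.678 ± 0.275 and -0.996 ± 0.122, a difference of -0.32 (SE 0.125, limma adjusted p = 0.497). Rest and Etv1 differed by 0.098 and -0.24. Cav3, chosen after its values were seen because its groups did not overlap, differed by 0.058 (limma adjusted p = 0.648). Cav3 was the 1 of these 21 genes without overlap, beside 3.52% of all genes (1.22% higher). In hypertrophy and failure the transient outward current genes are known to fall as stress genes rise. The 5 stress genes were all higher without passing the threshold: Nppa by 0.74, Nppb by 0.20, Ankrd1 by 0.19, Acta1 by 0.10 and Myh7 by 0.029 (limma adjusted p = 0.554 to 0.940). Myh7 turned sign in 3 of 22 alternatives. Of the 4 transient outward current genes, 2 were higher and 2 lower. Whether these hearts were under stress was not tested. Nppa is also an atrial marker, at its highest, 5.83, in overexpressing rat 6. Its difference was 0.35 without that rat and 1.11 without overexpressing rat 3, and the part of atrial tissue in it was not tested.

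**Figure D5:**
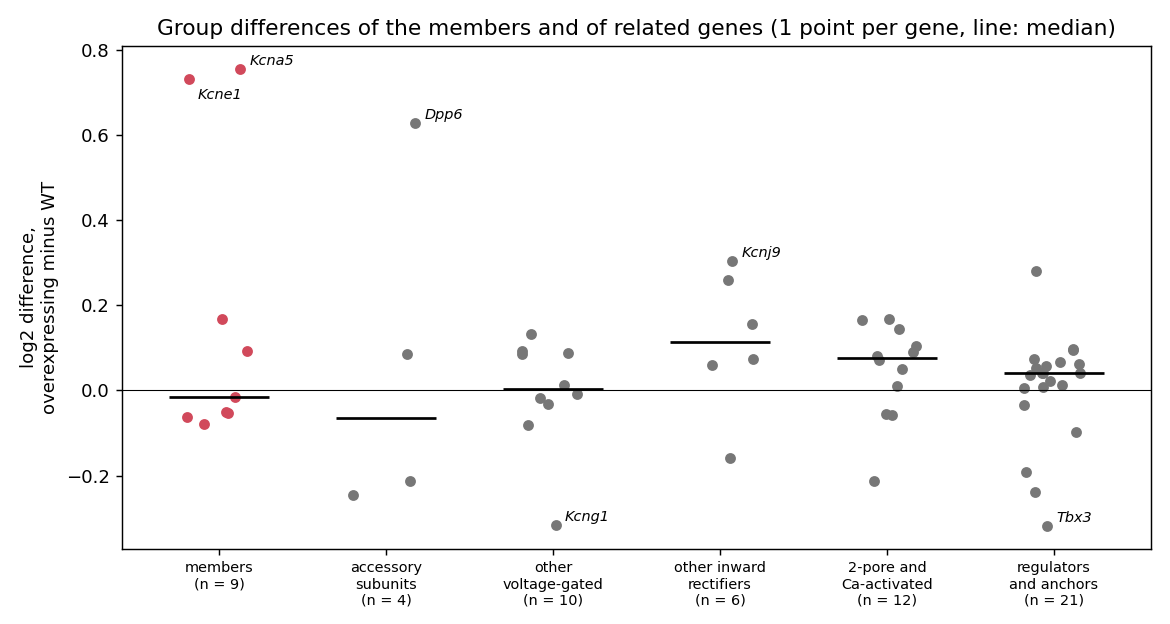
Difference between groups, in log2 units (overexpressing minus WT), of each tested channel gene and of the tested genes of 5 related lists; each point is a gene and each line the median of its list. The medians lie between -0.064 for accessory subunits and 0.115 for other inward rectifiers, and 0 of these genes passed the adjusted threshold.

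The genes whose levels over the 9 rats were most like those of a channel gene were looked up among 10513 named genes, for Kcnq1, Kcnip2 and Kcnd2. The most alike were Rpia (r = 0.950, rho = 0.883) and Spink8 (r = 0.935, rho = 0.933) for Kcnq1, Resp18 (r = 0.958, rho = 0.967) and Rrm1 (r = 0.924, rho = 0.683) for Kcnip2, and Acsl1 (r = 0.964, rho = 0.9) and Naa50 (r = 0.956, rho = 0.9) for Kcnd2. These are descriptions, the highest of many correlations over 9 points that share arrays and scaling.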

How the data were processed

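RNA of 13 left ventricle samples was measured on Agilent arrays of design 028279. The deposited scanner files hold spot intensity values made by the authors with Agilent Feature Extraction 10.7.1.1, background-subtracted and spatially detrended, per the file headers. A series table deposited by the authors gives natural log values, with scaling between arrays not stated. Set against the scanner files, it follows the median signal of the spots on that scale (slopes 0.986 to 1.063), with column medians of 5.695 to 5.73, and it served only as an alternative.

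From the processed intensity of 58717 spots, log2 was taken and each array's 75th percentile subtracted. Spots of a probe were averaged, then the labelings of a rat. A probe counted as above background on an array where at least 0.5 of its spots were, and was tested where this held, on all arrays of the rat, in at least 4 of 9 rats. Each gene was represented by its brightest probe. The group difference was fitted with limma 3.58.1 (lmFit, eBayes; R 4.3.3, with version 1.17.8 of data.table) and adjusted by Benjamini-Hochberg over all genes at 0.05, and single values by exact two-sided permutation over the 126 splits of 4 and 5 rats. The fit was tested on simulated data. Figures used Python 3.11.15, pandas 2.3.3, numpy 2.4.6 and matplotlib 3.10.9. Slides and scan days are those of the file headers, numbered. Gene names are those of the array design. The accessions of all 16 probes lead to the same symbols in RefSeq (GRCr8).

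Named are the members with all probes, Adrb3, from each related list the 2 genes of smallest p in each direction, all stress genes, and the 2 genes most alike for the 3 members above background on the most arrays, ties by level. One gene that this rule names is not reported here. The members and lists were chosen with earlier results of these data known. Alternatives changed the scaling, background correction, filter, probe choice, variance model, slide, scan day and rats. Array number and signal over background limit the precision. The markers of nerve, endothelium, fibroblasts, smooth muscle and macrophages were read too: by limma, 0 of 23 tested passed the adjusted threshold, and Gap43 differed by -0.50 at an unadjusted p under 0.05.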

Additional observations from a re-analysis of the deposited data

Results flagged for a closer look

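In 78 groups of 4 or 5 rats, 3 held a rat far from the others of its group, where chance gives about 1 in 20. The brighter Kcnq1 probe was at 3.08 in WT rat 3, while the other WT rats were at 3.26 to 3.28. The second Kcnd3 probe was at -5.46 in overexpressing rat 5, where it was not above background, and the others of that group were at -4.44 to -4.21. Acta1 was at 4.91 in overexpressing rat 3, with the other rats of its group at 5.13 to 5.22.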

How the results depend on the processing

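Under 22 alternatives 0 of the 9 tested members and 0 of the 53 related genes passed the adjusted threshold in any fit, and 181 of 196 member differences kept their sign. The count of members with an exact permutation p under 0.05 was 1 of 9, Kcna5, and was 0 with normexp correction and with the strict filter, which does not test Kcna5. Leaving out 1 rat gave 0 to 1, the 1 being Kcnip2 without WT rat 4 and Kcna5 without overexpressing rat 3. The share of all genes at this exact p was not computed. At an unadjusted limma p under 0.05 it was 9.44%, so a count of 1 of 9 does not set the members apart. Differences of 15 member fits turned sign, to values between -0.096 and 0.11. Kcnd3 was at 0.025 with median scaling, 0.040 with quantile normalization, 0.091 with slide and 0.060 with scan day as a term. Kcnj12 was at 0.0013 in the authors' table, and Kcnd2 at 0.020 with a gene's probes averaged. Of the related genes, Kcnab1 turned to -0.035 with normexp correction, -0.043 in the authors' table and -0.17 with slide, Kcnmb2 to 0.31 with probes averaged, and Kcns3, Kcnma1 and Myh7 to 0.0086, 0.086 and -0.018 with slide as a term.

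Leaving out 1 rat gave -0.096 to 0.21 for Kcna4, -0.14 to 0.042 for Kcnd2, -0.21 to 0.11 for Kcnd3, -0.11 to 0.35 for Kcnab1, -0.13 to 0.053 for Kcnmb2 and -0.050 to 0.072 for Myh7. The trended and robust variance called 8 genes, leaving out overexpressing rat 3 called 12, and slide as a term called 0 (269 higher and 449 lower at an unadjusted p under 0.05), beside 1. An alternative added after the data were seen, WT rat 1 from heart 1 alone, turned no member's sign.

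Rats with the same number deviated together by r = 0.106, 0.0347 and 0.124 for hearts 1, 3 and 6, and every overexpressing rat of these correlated best with its own number. These values cannot decide whether the numbers mark pairs. The labels do not say so, and the numbers were not taken as pairs. With the number as a replicate block on these 6 rats 0 genes were called, as without it. Both fits of the paired subset give the same differences: 0.014 for Kcnd3, 0.0026 for Kcnj12, -0.17 for Kcnab1, 0.049 for Kcns3 and 0.047 for Kcnmb2. The causes of these turns were not tested. Dim probes limit what Kcna5, Kcnd3 and Kcnj2 can show.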

Other observations

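The repeat hybridizations whose partner is not named gave values for the members outside the comparison. On WT heart 5, Kcne1 was at -2.63, Kcna5 at -4.67, Kcnq1 at 3.24 and Kcnip2 at 0.59. On overexpressing heart 4 they were at -3.10, -4.20, 3.28 and 0.50, so that Kcne1 was there below its level in every rat of that group and in all but 1 WT rat.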
